A study of Rattus norvegicus with 9 samples.

Results

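A set of 10 secretory granule genes was followed in pancreatic islets of obese rats fed a cafeteria diet and of lean rats fed standard chow. They encode 3 enzymes that process prohormones (Pcsk2, Cpe and Pam), 5 granins or granin-like proteins (Chga, Chgb, Scg2, Scg3 and Scg5) and a pair of membrane proteins (Ptprn and Ptprn2). They were chosen by name as granule genes, with earlier results of these data known. A probe set that the platform annotation gives to a single gene was found for 10 of 10, among 14217 such genes on the array. The 9 samples were whole islets of Wistar rats, freed with collagenase, and each was hybridised to 1 Affymetrix Rat Genome array. Of these, 5 came from obese rats on the high-caloric cafeteria diet, an energy-dense choice of palatable foods, for 30 days, and 4 from lean rats on the standard diet. The labels give neither sex nor age, nor whether animals were pooled. The p-values set the difference between the groups against the spread between samples within groups. They rest on only these 9 samples, and whether that spread is between single rats or pools is not known.

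Peptide hormones are made as longer precursors that enter the secretory granule and are cut there. Prohormone convertases cleave the precursor at pairs of basic residues, carboxypeptidase E trims the basic residues left behind, and peptidylglycine alpha-amidating monooxygenase converts a C-terminal glycine into an amide on those hormones that carry one. Granins are acidic proteins that aggregate with the hormones in the calcium-rich, acid lumen of the forming granule and are themselves cut into peptides. In the beta cell this pathway turns proinsulin into insulin and C-peptide, and the other endocrine cells of the islet use it for glucagon, somatostatin and pancreatic polypeptide.

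The values are log2 expression values per probe set as the authors deposited them, and a difference of 1 is a doubling. The arrays correlated with each other at 0.979 to 0.994 over 31042 probe sets. The defining genes of islet cells were measured in both groups, with Ins2 at 14.16 to 14.23 in cafeteria islets and 14.13 to 14.24 in lean islets, against array medians of 5.28 to 5.32. Marker scores, the mean difference of a list from its 9-array mean, showed that RNA of acinar, immune, ductal and stellate cells was unequal between arrays. The acinar score (26 of 28 markers measured) ran from -0.85 to 0.57 in cafeteria islets and from -0.62 to 0.18 in lean islets, and 24 of the 26 genes were higher in cafeteria islets. The immune score (24 of 25 measured) ran from -0.34 to -0.012 in cafeteria islets and from -0.042 to 0.93 in lean islets, with lean replicate 3 far above the rest. The ductal score ran from -0.17 to -0.030 in cafeteria islets and from -0.29 to 0.65 in lean islets. The stellate score ran from -0.51 to 0.26 in cafeteria islets and from -0.11 to 0.28 in lean islets. RNA quality, the 3-prime minus 5-prime difference of the actin and Gapdh control probe sets (a larger value marks more degraded or less completely copied RNA), averaged 1.51 ± 0.24 in cafeteria islets and 1.56 ± 0.16 in lean islets (SD, n = 5 and 4; two-sided exact permutation p = 0.746). In whole islets, fewer cells of a type and less RNA per cell cannot be told apart.

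The granule genes differed little between the diets. The differences of the 10 genes, cafeteria minus lean, lay between -0.18 and 0.21 on the log2 scale, with a median of 0.015 against 0.0025 over all 14217 genes. In cafeteria islets 6 were higher and 4 lower, against 50.8% of all genes higher and 49.2% lower. The sign of Pam, Scg5, Ptprn and Ptprn2 changed under other scalings, a covariate or with single samples left out. None of the 10 passed the test (limma, adjusted p under 0.05 over all probe sets; smallest adjusted p = 0.844), and 0% of all genes did. At an unadjusted p under 0.05 the count was also 0 of 10, against 6.7% of all genes (3.42% higher and 3.28% lower). In no granule gene did the groups separate without overlap, which they did in 2.17% of all genes (1.33% higher and 0.837% lower).

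The measurement bounds how far the diets could differ. The 95% interval of the difference lay within 1.5-fold either way in 10 of 10 granule genes, against 90.5% of all genes. It lay within 1.2-fold either way in 6 of 10, against 33.6% of all genes. Those 6 were Pcsk2, Cpe, Pam, Scg2, Scg5 and Ptprn2. The median interval reached 0.16 log2 to either side for the granule genes and 0.217 over all genes. Probe sets this bright can compress differences, so the intervals hold for the array signal and may understate a change of the RNA.

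**Figure D1:**
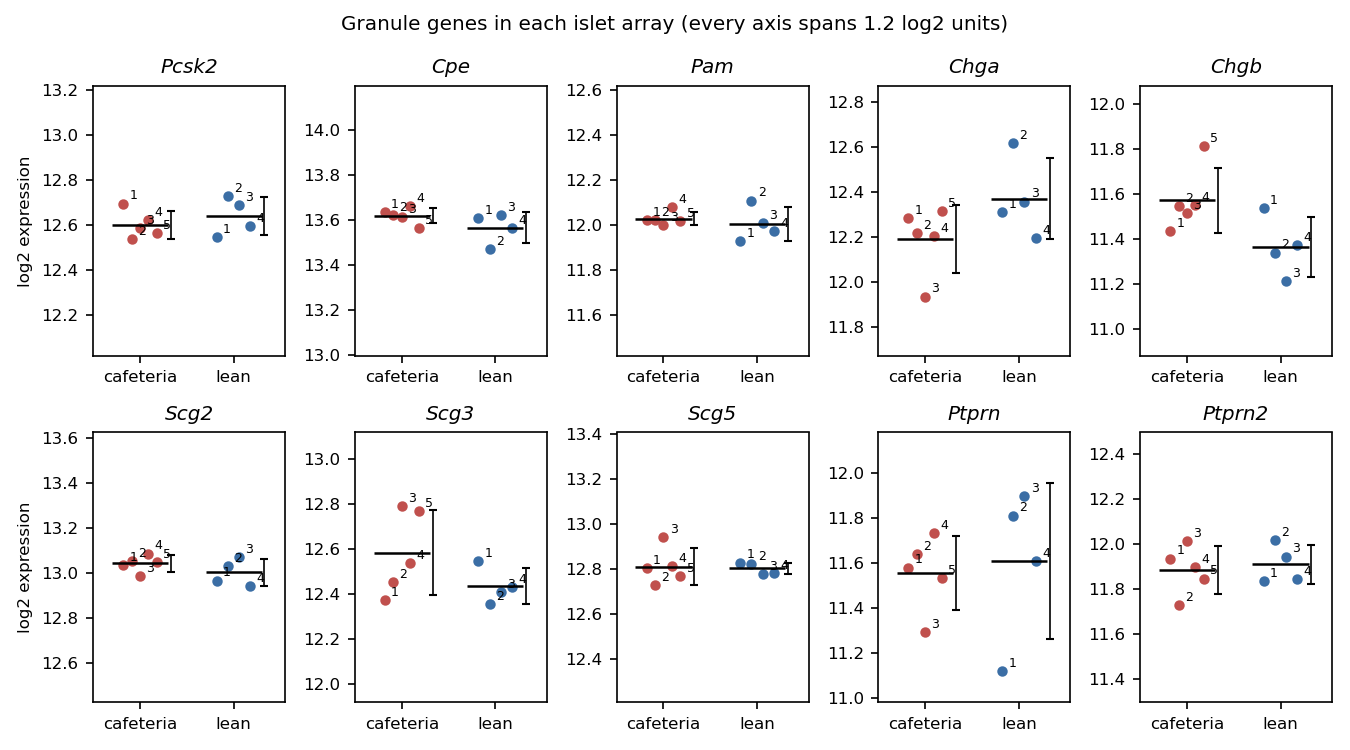
Log2 expression of the 10 granule genes in each array, with cafeteria islets (red, n = 5) left of lean islets (blue, n = 4); digits are replicate numbers, horizontal lines are group means, and bars are ± 1 SD. The groups overlap in every panel, and lean replicate 1 lies lowest for Ptprn (11.12).

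Among the processing enzymes, Pcsk2 encodes prohormone convertase PC2, which completes the cutting of proinsulin and is the main convertase of proglucagon in alpha cells. Its log2 values in cafeteria replicates 1 to 5 were 12.70, 12.54, 12.59, 12.62 and 12.57, and those in lean replicates 1 to 4 were 12.55, 12.73, 12.69 and 12.60. All 9 arrays lay within one narrow band. Means were 12.60 ± 0.061 in cafeteria islets and 12.64 ± 0.085 in lean islets (SD, n = 5 and 4), a difference of -0.040 (SE 0.068; limma adjusted p = 0.939).

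Cpe encodes carboxypeptidase E, which removes the basic residues that convertases leave. Its log2 values were 13.63, 13.62, 13.62, 13.66 and 13.57 in cafeteria islets, and 13.61, 13.47, 13.62 and 13.56 in lean islets. Lean replicate 2 was the lowest array and the others lay close together. The difference was 0.053 (SE 0.062; limma adjusted p = 0.902), and 0.022 without lean replicate 2.

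Pam encodes the amidating enzyme, needed for amylin and pancreatic polypeptide among the islet hormones. Its brightest probe set had log2 values of 12.02, 12.02, 12.00, 12.08 and 12.02 in cafeteria islets, and 11.93, 12.11, 12.01 and 11.98 in lean islets. The cafeteria arrays lay inside the lean range. The difference was 0.023 (SE 0.063; limma adjusted p = 0.966) and turned to -0.0027 without lean replicate 1. The remaining 2 probe sets of Pam were dim, with means of 5.37 and 3.65 in cafeteria islets and 5.35 and 3.65 in lean islets, and differed by 0.021 and -0.0058.

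Scg5 encodes 7B2, a small protein that binds pro-PC2 and is needed for it to become active. Its log2 values were 12.80, 12.73, 12.94, 12.81 and 12.77 in cafeteria islets, and 12.83, 12.82, 12.78 and 12.78 in lean islets. The lean arrays lay inside the cafeteria range, which cafeteria replicate 3 set at the top. The difference was 0.0084 (SE 0.065; limma adjusted p = 0.990). Its sign turned under repeated quantile normalization, so no direction is given for Scg5.

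The granins showed the widest differences of the set, and not in one direction. Chgb (chromogranin B) and Scg3 (secretogranin 3) averaged higher in cafeteria islets, Chga (chromogranin A) averaged lower, and Scg2 (secretogranin 2) differed by less than its standard error. Scg3 protein binds chromogranin A and cholesterol-rich granule membrane, and chromogranins A and B are the principal granins of endocrine granules.

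Chgb had log2 values of 11.43, 11.55, 11.51, 11.55 and 11.81 in cafeteria islets, and 11.54, 11.34, 11.21 and 11.37 in lean islets. Cafeteria replicate 5 was the highest array, and only lean replicate 1 reached into the cafeteria range. Means were 11.57 ± 0.14 in cafeteria islets and 11.37 ± 0.13 in lean islets (SD, n = 5 and 4). The difference of 0.21 (SE 0.094), or 1.15-fold with a 95% interval from 0.999 to 1.33, had an unadjusted p of 0.0518 and an adjusted p of 0.844 by limma, the smallest of the 10 genes. It ranged from 0.15 without cafeteria replicate 5 to 0.26 without lean replicate 1 (limma adjusted p = 0.560).

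Chga had log2 values of 12.28, 12.21, 11.93, 12.20 and 12.32 in cafeteria islets, and 12.31, 12.62, 12.36 and 12.19 in lean islets. The groups overlapped between 12.19 and 12.32, where cafeteria replicates 1, 2, 4 and 5 and lean replicates 1 and 4 lay. Cafeteria replicate 3 was lowest and lean replicate 2 highest. Means were 12.19 ± 0.15 in cafeteria islets and 12.37 ± 0.18 in lean islets (SD, n = 5 and 4), a difference of -0.18 (SE 0.11; limma adjusted p = 0.845), or 0.883-fold with an interval from 0.751 to 1.04. It was -0.097 without lean replicate 2 and -0.12 without cafeteria replicate 3.

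Scg3 had log2 values of 12.37, 12.45, 12.79, 12.54 and 12.77 in cafeteria islets, and 12.55, 12.36, 12.41 and 12.43 in lean islets. Cafeteria replicates 3 and 5 stood above all other arrays, and the other cafeteria arrays lay among the lean ones. Means were 12.59 ± 0.19 in cafeteria islets and 12.44 ± 0.081 in lean islets (SD, n = 5 and 4), a difference of 0.15 (SE 0.10; limma adjusted p = 0.848). It was 0.097 without cafeteria replicate 3. The RNA quality values of cafeteria replicates 3 and 5 were 1.74 and 1.73, exceeded only by lean replicate 1 at 1.80. With RNA quality as a covariate the Scg3 difference was 0.18 (limma adjusted p = 0.415) and that of Chgb was 0.23 (limma adjusted p = 0.384). With the score of islet cells other than beta cells as a covariate Scg3 differed by 0.054 and Chgb by 0.17.

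Scg2 had log2 values of 13.03, 13.05, 12.99, 13.09 and 13.05 in cafeteria islets, and 12.97, 13.03, 13.07 and 12.94 in lean islets. The arrays of both diets were intermixed. The difference was 0.040 (SE 0.061; limma adjusted p = 0.931).

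Scg2 is also a classical target of cyclic AMP signalling through the cyclic AMP response element (CRE), and Crem, which encodes modulators that bind this element, is described with the regulators further on. The letters of the CRE (TGACGTCA, its own reverse complement) and of its core (TGACG, or CGTCA on the other strand) were therefore sought in the RefSeq promoter windows of build GRCr8, from 250 bases before to 50 after each gene's start. A window was found for 9 of the 10 genes, all but Chga. The windows of Scg2, Chgb and Scg3 are printed 5′ to 3′ on the gene's strand, because Scg2 holds the full CRE and the others had the largest positive differences. Capitals mark every core, and the full CRE in Scg2 holds overlapping cores on both strands.
Scg2, chr9:88256817-88257116, minus strand: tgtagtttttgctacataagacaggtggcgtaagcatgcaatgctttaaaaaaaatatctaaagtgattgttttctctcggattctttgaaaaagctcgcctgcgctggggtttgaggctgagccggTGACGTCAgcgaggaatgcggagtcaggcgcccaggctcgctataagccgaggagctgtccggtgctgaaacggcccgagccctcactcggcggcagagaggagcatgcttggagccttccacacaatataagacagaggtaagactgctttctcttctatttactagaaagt
Chgb, chr3:140496462-140496761, plus strand: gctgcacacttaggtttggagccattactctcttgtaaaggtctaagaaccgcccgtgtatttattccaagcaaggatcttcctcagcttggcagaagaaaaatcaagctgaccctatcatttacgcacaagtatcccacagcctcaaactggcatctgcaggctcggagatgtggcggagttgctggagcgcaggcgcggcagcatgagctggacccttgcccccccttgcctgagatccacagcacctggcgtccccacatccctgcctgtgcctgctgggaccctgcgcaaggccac
Scg3, chr8:85322435-85322734, minus strand: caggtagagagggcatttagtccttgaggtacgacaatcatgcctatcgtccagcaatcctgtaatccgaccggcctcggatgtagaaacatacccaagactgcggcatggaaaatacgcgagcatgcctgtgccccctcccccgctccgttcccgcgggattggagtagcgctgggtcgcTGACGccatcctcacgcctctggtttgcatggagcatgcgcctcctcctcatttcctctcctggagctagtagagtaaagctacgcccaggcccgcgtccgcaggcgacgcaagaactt
The Scg2 CRE starts 123 bases before the gene's start, and the Scg3 core 69 bases before it.

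The full CRE occurred in 1 of the 9 windows (Scg2), against 1.83% of 33469 windows of all RefSeq genes, coding and non-coding. The core occurred in 7 of 9 (Pcsk2, Cpe, Pam, Scg2, Scg3, Scg5 and Ptprn), against 21.2% of all windows, and its letters were not in the windows of Chgb and Ptprn2. A GC box (GGGCGG or CCGCCC) occurred in 6 of 9, against 33.1% of all windows. A TATA box (TATAAA or TTTATA) and an E-box (CACGTG) occurred in 0 of 9, against 14.2% and 6.42%. The GC content of the 9 windows ran from 50% to 73.3%, with a median of 51.7% over all windows, and short GC-rich motifs depend on it. Of the 9 genes 3 lie on chromosome 3 (Scg5, Chgb and Pcsk2) and 3 on chromosome 9 (Ptprn, Scg2 and Pam). Among the genes with the core, diet differences ran from -0.052 in Ptprn to 0.15 in Scg3, and those without it differed by 0.21 (Chgb) and -0.026 (Ptprn2).

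The membrane proteins IA-2 (Ptprn) and IA-2 beta (Ptprn2) span the granule membrane. They resemble receptor tyrosine phosphatases but lack normal phosphatase activity, are autoantigens in human type 1 diabetes, and in mice their loss lowers the number of insulin granules. Ptprn had log2 values of 11.58, 11.64, 11.29, 11.73 and 11.53 in cafeteria islets, and 11.12, 11.81, 11.90 and 11.61 in lean islets. It was the most variable gene of the set among lean islets, with an SD of 0.16 in cafeteria islets and 0.35 in lean islets, and the cafeteria arrays lay inside the lean range. The difference was -0.052 (SE 0.15; limma adjusted p = 0.967). Without lean replicate 1 it was -0.22, and without lean replicate 2, lean replicate 3 or cafeteria replicate 3 it turned to between 0.013 and 0.043, so no direction is given.

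Ptprn2 had log2 values of 11.94, 11.73, 12.01, 11.90 and 11.85 in cafeteria islets, and 11.84, 12.02, 11.94 and 11.85 in lean islets. The arrays of both diets covered the same span. The difference was -0.026 (SE 0.077; limma adjusted p = 0.968) and turned to 0.021 under repeated quantile normalization.

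**Figure D2:**
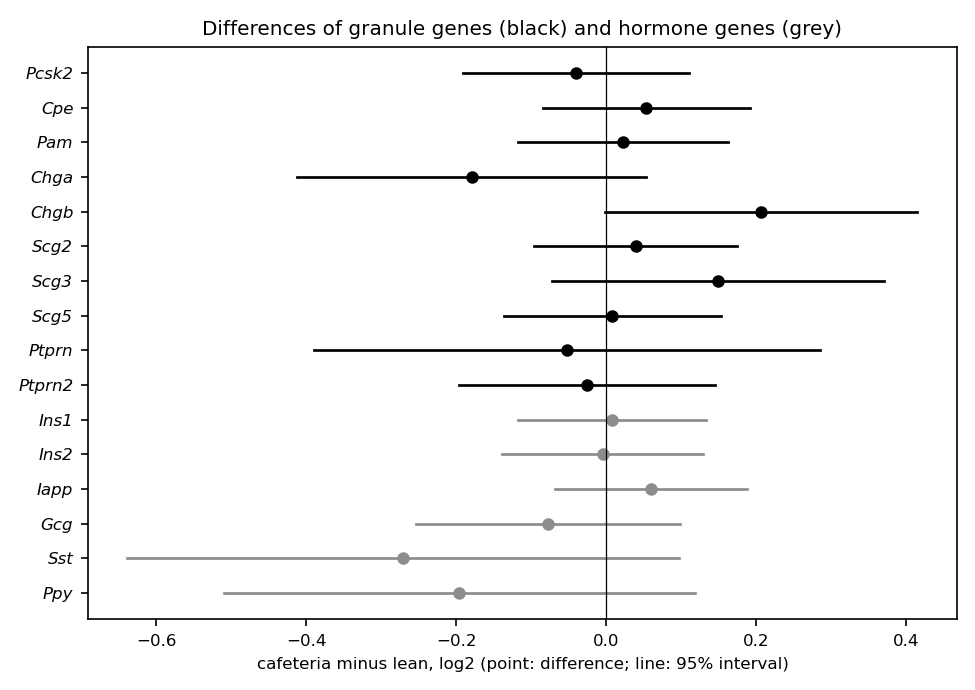
Differences between cafeteria and lean islets on the log2 scale for the 10 granule genes (black) and 6 hormone genes (grey); points are the differences and lines their 95% intervals by limma. Every interval of a granule gene includes 0, with that of Chgb just reaching it (-0.0020 to 0.42).

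The hormones are the cargo that these proteins store and cut. Ins1 and Ins2 differed by 0.0076 and -0.0047 (SE 0.057 and 0.061). These probe sets are among the brightest, with the highest value of the table (14.24) in Ins2, and differences there can be compressed. Iapp, which encodes amylin, differed by 0.060 (SE 0.058; limma adjusted p = 0.881). Its cafeteria values of 13.96 to 14.01 and lean values of 13.87 to 13.96 just failed to overlap, against 1.33% of all genes higher without overlap. Gcg differed by -0.078 (SE 0.079), Sst by -0.27 (SE 0.17) and Ppy by -0.20 (SE 0.14). Sst was lowest in cafeteria replicate 3, at 12.32, the array that also had the lowest Chga, and without this array Sst differed by -0.13 and Ppy by -0.0975. Pyy (peptide YY, -0.30, SE 0.20) and Ghrl (ghrelin, -0.23, SE 0.26), named after their values were seen, complete the 8 hormone genes, of which 6 were lower in cafeteria islets, with a median of -0.14, and 0 passed the test by limma. Of the 12 measured markers of non-beta islet cells, which include 5 of these hormones, 11 were lower, with a median of -0.23 and a score of -0.32 to 0.22 in cafeteria islets and 0.027 to 0.35 in lean islets. Whether cell composition had a part in the hormone differences was not tested, nor was a difference between beta cell and other hormones.

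Across the 9 arrays the granule genes did not vary as one block. Over the 45 pairs Pearson's r ran from -0.67 to 0.73 with a median of 0.025, and 25 pairs were positive. In exact permutation tests over all pairings 5 pairs had p under 0.05, and 0 of 45 passed after Benjamini-Hochberg adjustment (smallest adjusted p = 0.351). All relations named next therefore fail the correction and are given as values.

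Pcsk2 and Ptprn2 had r = 0.73 (Spearman's rho 0.78; exact permutation p = 0.0267 and 0.0172, adjusted 0.351 and 0.453), and 0.61 without the 2 arrays farthest from the median of Pcsk2. Chgb and Scg3 had r = 0.72 (rho 0.70; exact p = 0.0238 and 0.0433, adjusted 0.351 and 0.453), and 0.57 without the 2 arrays farthest from the median of Chgb. Both genes averaged higher in cafeteria islets, and centred on the diet means their r was 0.62 (rho 0.42; exact p = 0.0764 and 0.27, adjusted 0.313 and 0.551), and 0.20 without the 2 farthest arrays. Pcsk2 and Chgb ran against each other, at r = -0.67 (rho -0.65; exact p = 0.0417 and 0.0666, adjusted 0.351 and 0.482), and -0.69 without the 2 farthest arrays. Pam and Ptprn had r = 0.71 (rho 0.62; exact p = 0.0331 and 0.0857, adjusted 0.351 and 0.482), but 0.32 without lean replicates 1 and 2. Scg5 and Ptprn2 had r = 0.70 (rho 0.47; exact p = 0.0351 and 0.213, adjusted 0.351 and 0.638), but 0.26 without cafeteria replicates 2 and 3. As measured, the last 2 relations thus rest on those arrays, and that of Chgb and Scg3 was weaker within the diets. Centred on the diet means, Pam and Ptprn had r = 0.76 (rho 0.90), and 0.65 without lean replicates 1 and 2. Their exact permutation p, adjusted, was 0.262 for r and 0.0913 for rho. Scg5 and Ptprn2 had r = 0.72 so centred (rho 0.53), but 0.20 without cafeteria replicates 2 and 3. The highest centred r was 0.77, in Scg2 and Ptprn (rho 0.83), and 0.88 without the 2 farthest arrays.

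**Figure D3:**
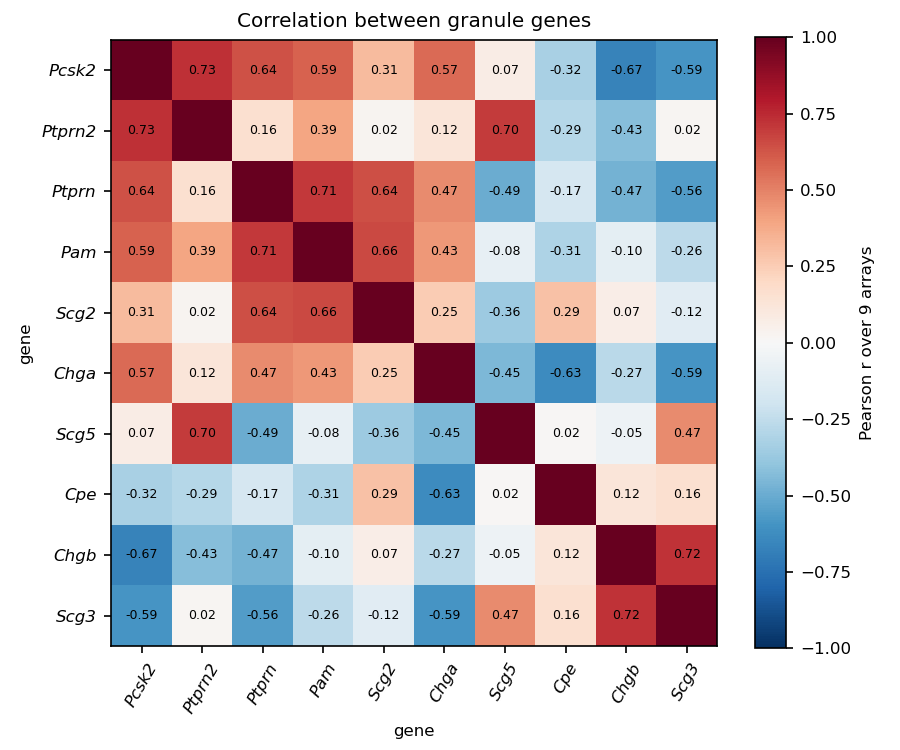
Pearson's r between the 10 granule genes over the 9 arrays (5 cafeteria, 4 lean), from blue (-1) to red (1). Pcsk2 is positive with Ptprn2 (0.73) and negative with Chgb (-0.67), and Chgb is positive with Scg3 (0.72).

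The 10 genes were also set against marker scores. The beta cell score (9 of 13 markers measured) ran from -0.056 to 0.060 in cafeteria islets and from -0.0049 to 0.066 in lean islets. Of 40 relations between the 10 genes and 4 scores (beta cell, other islet cell, acinar and RNA quality), 4 had an exact permutation p under 0.05 and 0 passed the adjustment. Chgb had r = -0.79 with the beta cell score (rho -0.82; exact p = 0.00635 and 0.0108, adjusted 0.254 and 0.403), and -0.75 without the 2 farthest arrays. Pcsk2 had r = 0.78 with it (rho 0.72; exact p = 0.0191 and 0.0369, adjusted 0.336 and 0.403), and 0.63 without the 2 farthest arrays. Scg3 had r = -0.73 with it (rho -0.73; exact p = 0.0252 and 0.0311, adjusted 0.336 and 0.403), and -0.68 without the 2 farthest arrays. Scg3 also had r = 0.68 with RNA quality (rho 0.68; exact p = 0.0470 and 0.0503, adjusted 0.405 and 0.403), and 0.74 without the 2 farthest arrays. These relations pool both diets and were not centred on the diet means. The beta cell score averaged -0.023 in cafeteria islets and 0.028 in lean islets, while Chgb and Scg3 averaged higher and Pcsk2 lower in cafeteria islets. Whether the diet contrast, cell composition or RNA quality had a part in these relations was not tested.

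The mean profile of the 10 genes over the arrays was flat, from -0.026 to 0.044 in cafeteria islets and from -0.058 to 0.049 in lean islets around the 9-array mean of each gene. Among the 10, Pam followed it most closely (r = 0.83), and Cpe (-0.26), Scg5 (-0.064), Scg3 (0.049) and Chgb (0.097) hardly at all. The 5 genes outside the set whose values over the 9 arrays were most like this profile were Cat (r = 0.957), which encodes catalase, E2f6 (0.911), a transcriptional repressor, Kcna3 (0.905), a voltage-gated potassium channel, Arf4 (0.904), a small GTPase of the Golgi, and Abo3 (0.892). They were picked as the highest of 14207 correlations, and the search itself favours high values. Kcna3 and Abo3 lay below the array medians. The diet differences of the 5 genes ran from -0.0058 in Kcna3 to 0.091 in E2f6.

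Another 4 lists of genes around the granule were examined beside the 10. Of 17 measured enzymes and inhibitors of prohormone processing (of 18 listed), 6 were higher and 11 lower in cafeteria islets, with a median of -0.055, and 0 passed the test by limma (0 at an unadjusted p under 0.05). Pcsk1n, which encodes proSAAS, an inhibitor of a convertase, had cafeteria values of 12.69, 12.42, 10.90, 12.31 and 11.93 and lean values of 12.09, 12.78, 12.64 and 12.62. Cafeteria replicate 3 was the lowest array by far, and the difference of -0.48 (SE 0.31; limma adjusted p = 0.846) was -0.19 without it. Ece1, endothelin-converting enzyme, differed by -0.33 (SE 0.17; -0.21 without cafeteria replicate 3), and Pcsk5, a convertase of other precursors, by 0.17 (SE 0.088). The Pcsk5 values lay close to the array medians.

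Of 18 measured genes for other cargo and membrane proteins of the granule (of 20 listed), 10 were higher and 8 lower, with a median of 0.083, and 0 passed the test. Vgf, which encodes a granin-like precursor of peptides, was the single gene of the 18 at an unadjusted p under 0.05, against 6.7% of all genes (3.28% lower). Its log2 values were 5.19, 5.09, 4.99, 4.99 and 5.26 in cafeteria islets, and 5.34, 5.46, 5.25 and 5.31 in lean islets, close to the array medians. All but cafeteria replicate 5 lay below every lean array, and the difference was -0.23 (SE 0.082; unadjusted p = 0.0160, limma adjusted p = 0.844). Cyb561, a cytochrome that passes electrons into the granule for the amidating enzyme, differed by 0.16 (SE 0.074), and Nucb2, the precursor of nesfatin, by 0.17 (SE 0.096).

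Of 30 measured genes for granule formation and acidification (of 30 listed), 21 were higher and 9 lower in cafeteria islets, with a median of 0.031, and 0 passed the test. Of these, 4 were higher at an unadjusted p under 0.05, against 3.42% of all genes higher at that p. Vti1a, a SNARE protein of the trans-Golgi, had log2 values of 5.60 to 5.75 in cafeteria islets and 5.45 to 5.48 in lean islets, a difference of 0.22 (SE 0.062). These values lay close to the array medians of 5.28 to 5.32. Vamp4, another Golgi SNARE, had values of 8.35 to 8.87 in cafeteria islets and 8.12 to 8.34 in lean islets, a difference of 0.35 (SE 0.11), although its other probe set differed by -0.15 (SE 0.21). Eipr1, a partner of the EARP complex that sorts granule cargo, differed by 0.36 (SE 0.11), with 7.38 to 7.91 in cafeteria islets and 7.13 to 7.43 in lean islets. Atp6v1a, the catalytic subunit of the proton pump that acidifies granules, was named after its values were seen, and differed by 0.28 (SE 0.089), with 9.79 to 10.21 in cafeteria islets and 9.62 to 9.75 in lean islets, while its other probe set differed by 0.092 (SE 0.14). Atp6v0a1, a membrane subunit of the same pump, also named after its values were seen, had the largest difference of the list and the opposite sign, -0.52 (SE 0.26), with 8.47 to 9.13 in cafeteria islets and 8.50 to 9.87 in lean islets. The groups did not overlap in Vti1a, Vamp4 and Atp6v1a, against 1.33% of all genes higher without overlap, and the limma adjusted p was 0.844 in the 4 higher genes.

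Of 11 measured regulators of granule genes (of 13 listed), 2 were higher and 9 lower in cafeteria islets, with a median of -0.10, and 0 passed the test. At an unadjusted p under 0.05 there were 1 higher (Crem) and 1 lower (Isl1), against 3.42% and 3.28% of all genes. Crem had log2 values of 6.76, 6.97, 7.04, 7.50 and 6.96 in cafeteria islets, and 6.30, 6.58, 6.62 and 6.62 in lean islets. Every cafeteria array lay above every lean array, as in 1.33% of all genes, and the difference was 0.52 (SE 0.14; unadjusted p = 0.00344, limma adjusted p = 0.844). Its 5 other probe sets differed by 0.22 to 0.62, all in the same direction. Isl1, a LIM transcription factor of all islet cells, differed by -0.49 (SE 0.20; unadjusted p = 0.0309, limma adjusted p = 0.844), with cafeteria values of 8.46 to 9.27 and lean values of 8.79 to 9.57 that overlapped. Neurod1, a transcription factor that drives insulin and granule genes, differed by -0.13 (SE 0.079).

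**Figure D4:**
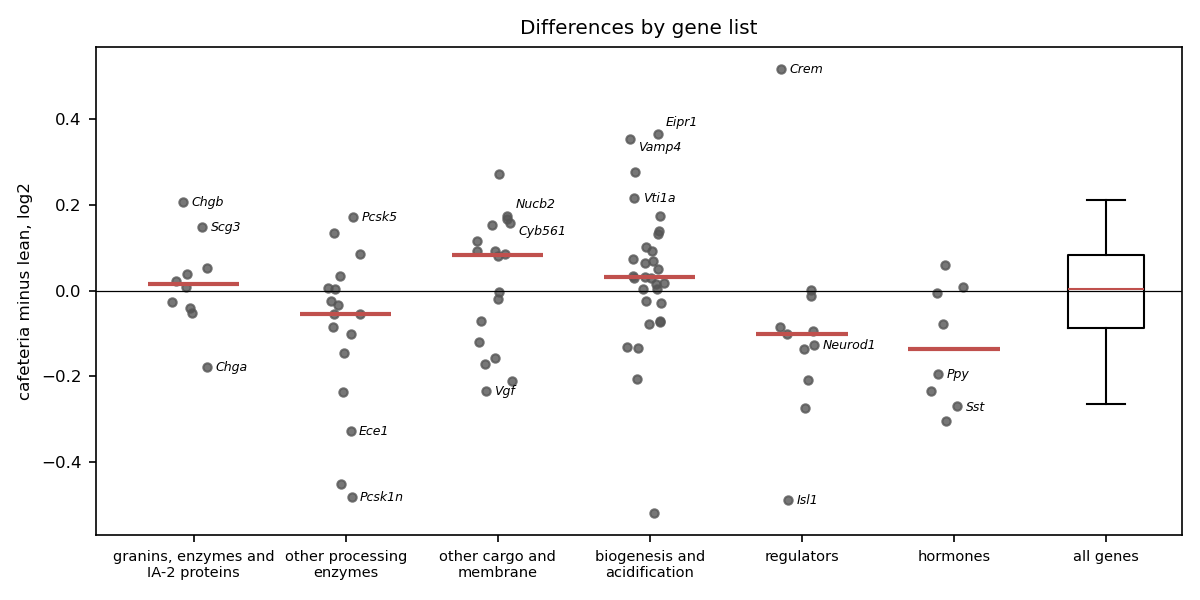
Differences between cafeteria and lean islets (log2) for each gene of 6 lists, with red lines at the list medians, and for all 14217 genes as a box (quartiles, whiskers at the 5th and 95th percentiles). The 10 granule genes at the left stay between -0.18 and 0.21, and Crem (0.52) lies highest among the genes shown.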

How the data were processed

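The study measured RNA of 9 islet samples on 9 arrays. The authors deposited log2 expression values per probe set. RMA, R 2.7.0 and affy 2.0.1 are named, without their roles, per the submitters' processing notes. RMA equalises the arrays, so a shift shared by most genes would be removed.

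Without the 57 control probe sets, 31042 were tested. Of these 20826 had a single gene, and the probe set with the highest 9-array mean stood for a gene. No 2 arrays were identical. Groups were compared with limma 3.58.1 (R 4.3.3; lmFit, eBayes, two-sided, no covariate), adjusted by Benjamini-Hochberg over all probe sets at 0.05. Single values were compared by exact permutation over 126 splits (Python 3.11.15, numpy 2.4.6, scipy 1.17.1). On simulated arrays of 31042 probe sets with these means and spreads, 50 of 67 changes of 1.5-fold and 61 of 67 of 2-fold were recovered, and 8 of 182 calls were false. The simulated noise was independent between probe sets, whereas acinar and immune RNA varied between the real arrays across many genes. The simulation therefore checks the procedure and does not give the recovery to be had in these data. Precision is limited by having 9 arrays.

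The genes and lists were chosen with earlier results of these data known. Named were the 10 genes, 6 hormones, the 3 genes of smallest p in each of 4 lists, and the 5 genes nearest in profile. The alternatives were scaling, a brightness filter, the variance model, array weights, 3 covariates, the rule for several probe sets, a threshold of 0.10 and leaving out each sample.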

Additional observations from a re-analysis of the deposited data

Results flagged for a closer look

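In a test of whether the highest or lowest array stands far from the rest of its group, 8 of 102 groups of values were marked, and chance marks about 1 in 20. No one of the 10 granule genes was among them. Cafeteria replicate 5 had the lowest acinar score of its group, -0.85, with the other cafeteria arrays from 0.17 to 0.57. Cafeteria replicate 1 had the highest beta cell score, 0.060, with the others from -0.056 to -0.035, and cafeteria replicate 4 the highest score of other granule cargo and membrane genes, 0.10, with the others from -0.032 to 0.0010. Lean replicate 1 had the highest score of islet cells other than beta cells, 0.35, with the other lean arrays from 0.027 to 0.068. It also had the lowest Cyb561, 9.11, with the others from 9.19 to 9.20, and the lowest Crem, 6.30, with the others from 6.58 to 6.62. Lean replicate 3 had the highest immune score, 0.93, with the others from -0.042 to 0.11, and lean replicate 2 the lowest endothelial score, -0.023, with the others from 0.085 to 0.095.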

How the results depend on the processing

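Under 20 alternatives 0 of the 10 granule genes and 0 probe sets passed limma at the adjusted threshold, the alternative threshold of 0.10 included, and the smallest adjusted p of a granule gene was 0.384. Some alternatives could not turn a direction. The threshold of 0.10, the variance model and the brightness filter leave every difference as it was, and the probe set rules can change only that of Pam. With these counted in, the direction held in 189 of 200 gene differences. It turned in 11: with repeated quantile normalization in Scg5 (-0.0012) and Ptprn2 (0.021), with the acinar score as a covariate in Scg5 (-0.020) and Ptprn (0.0048), and with single samples left out in Pam (-0.0027), Ptprn (0.013, 0.015 and 0.043), Ptprn2 (0.0095 and 0.013) and Scg5 (-0.025). The cause was not tested. With single samples left out, Pam lay between -0.0027 and 0.057, Ptprn between -0.22 and 0.043, Ptprn2 between -0.058 and 0.013, and Scg5 between -0.025 and 0.029. Chgb kept its direction throughout, from 0.15 to 0.26, and Chga from -0.24 to -0.097. Unadjusted p was under 0.05 in 10 of the 200, 9 in Chgb and 1 in Scg3. With single samples left out the median of the 10 genes lay between 0.0069 and 0.034, and between 2 and 5 genes were lower. The median was 0.047 with repeated quantile normalization, 0.024 with median centring and 0.0041 with the score of islet cells other than beta cells as a covariate. The RNA quality difference lay between -0.11 and 0.028 in the same way, turning to 0.028 without lean replicate 1 and 0.023 without cafeteria replicate 1. Centred on the diet means, 0 of 45 pairs of genes passed at 0.05. The smallest adjusted p by exact permutation was 0.262 for Pearson's r and 0.0913 for Spearman's rho. Other scalings moved the median of all genes to at most 0.012. No paired analysis was possible because the labels mark the samples only by letters that differ between the diets, and the replicate numbers were given here in accession order. RMA values carry no detection call, and the 2 dim probe sets of Pam and those of Pcsk5, Vgf and Vti1a lie where differences are compressed.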

Other observations

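The extreme values of the 10 granule genes were shared unevenly among the arrays. Lean replicate 2 held 6 of the 20 extremes, the highest values of Pcsk2, Pam, Chga and Ptprn2 and the lowest of Cpe and Scg3. Cafeteria replicate 3 held 3, the highest Scg3 and Scg5 and the lowest Chga, and cafeteria replicate 2 held 3, the lowest Pcsk2, Scg5 and Ptprn2. Cafeteria replicate 1 held 0, and it had the lowest RNA quality value, 1.21.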
